A study of Arabidopsis thaliana with 5 samples.

Results

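The flavonoid synthesis genes examined here are 10 named loci of Arabidopsis thaliana, taken by locus identifier. All 10 were found among the 33559 loci of the expression matrix. They comprise chalcone synthase (TT4), chalcone isomerase (TT5), the chalcone isomerase-like protein CHIL, flavanone hydroxylase (F3H), the flavonoid hydroxylase TT7, flavonol synthase (FLS1), dihydroflavonol reductase (DFR), anthocyanidin synthase (LDOX), the glucosyltransferase UGT78D2 and the transcription factor MYB12.

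RNA was sequenced from roots of plants labelled as cultivar Col-1, which were 5 weeks old and were then held at little or much magnesium. Roots in 0.5 µM Mg (low Mg) and in 10 mM Mg (high Mg) were each taken once at 4 d and once at 7 d, and roots of control plants once at 4 d. How much Mg the control received is not stated in the labels, and a 7-d control was not analysed. With 1 library in each of the 5 groups, a difference between groups has no replicate check, and no p-value was computed. In RNA from a whole organ, fewer cells of a type and less RNA per cell cannot be told apart.

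Flavonoids are made from phenylalanine through coumaroyl-CoA. Chalcone synthase joins that precursor to malonyl-CoA, the isomerase closes the ring, and F3H yields dihydroflavonols, which flavonol synthase turns into flavonols and DFR directs towards anthocyanins. In Arabidopsis roots flavonols gather mainly near the tip and in the zone of elongation, where they are known to restrain auxin transport, and MYB12 is the main activator of their synthesis there.

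The stretches just upstream of the genes are shown to set the genes that stood apart at 4 d beside one that gave no signal. The 250 bases before each annotated gene start were read from the TAIR10.1 genome with its RefSeq annotation, and are printed 5′ to 3′ on the strand of the gene. Capitals mark the G-box CACGTG, a palindrome bound by bZIP factors such as HY5 and by bHLH factors. The regions of the 5 genes that were at least 2-fold higher in high Mg than in the control at 4 d are at chr5:4488226-4488475, plus strand (TT4), chr5:1563036-1563285, plus strand (CHIL), chr3:19024942-19025191, plus strand (F3H), chr5:2803583-2803832, plus strand (FLS1) and chr2:19476076-19476325, plus strand (MYB12). That of DFR, which was listed at 0 in every library, is at chr5:17166033-17166282, minus strand.
TT4: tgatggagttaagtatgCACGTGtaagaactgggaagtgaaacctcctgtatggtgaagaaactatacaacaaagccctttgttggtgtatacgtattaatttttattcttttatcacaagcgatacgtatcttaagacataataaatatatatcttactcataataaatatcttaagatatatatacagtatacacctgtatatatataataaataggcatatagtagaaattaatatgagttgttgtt
CHIL: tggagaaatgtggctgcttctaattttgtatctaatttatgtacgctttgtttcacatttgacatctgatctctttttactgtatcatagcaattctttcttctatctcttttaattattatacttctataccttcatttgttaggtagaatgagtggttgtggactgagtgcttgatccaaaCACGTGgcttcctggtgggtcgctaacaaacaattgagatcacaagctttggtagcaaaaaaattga
F3H: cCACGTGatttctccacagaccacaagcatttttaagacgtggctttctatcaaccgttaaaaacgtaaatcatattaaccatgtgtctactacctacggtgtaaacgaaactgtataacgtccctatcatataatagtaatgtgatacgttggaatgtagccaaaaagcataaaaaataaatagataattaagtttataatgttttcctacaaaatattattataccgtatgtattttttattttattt
MYB12: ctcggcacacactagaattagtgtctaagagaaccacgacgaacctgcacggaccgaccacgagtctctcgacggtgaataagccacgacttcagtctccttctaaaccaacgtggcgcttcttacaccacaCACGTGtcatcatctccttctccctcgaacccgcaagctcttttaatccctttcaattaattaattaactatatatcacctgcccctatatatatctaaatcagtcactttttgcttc
FLS1: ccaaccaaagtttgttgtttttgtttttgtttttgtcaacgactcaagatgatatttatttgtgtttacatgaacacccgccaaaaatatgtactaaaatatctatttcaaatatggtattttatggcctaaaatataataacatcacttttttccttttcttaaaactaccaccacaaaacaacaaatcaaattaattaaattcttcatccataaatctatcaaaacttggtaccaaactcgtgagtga
DFR: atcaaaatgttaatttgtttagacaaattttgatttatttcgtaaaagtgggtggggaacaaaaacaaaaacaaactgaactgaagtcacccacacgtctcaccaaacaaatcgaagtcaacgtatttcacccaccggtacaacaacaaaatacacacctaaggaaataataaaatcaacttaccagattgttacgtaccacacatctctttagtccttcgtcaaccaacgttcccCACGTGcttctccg

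The G-box was found in 5 of the 10 members (TT4, CHIL, F3H, MYB12 and DFR) and in 6.49% of 27443 upstream regions of coding genes of the same length. The ACGT core, which every G-box contains, was found in the same count of members, 5 of 10, and in 44.1% of all regions. Both strands were searched. Of the MYB elements searched, ACCTACC and ACCAACC matched 0 members (1.16% and 2.69% of all regions) and ACCAAAC matched 2, FLS1 and DFR (8.29% of all regions). A match is a run of letters and not a bound site. The G-box lay upstream of 4 of the 5 genes that were 2-fold higher in high Mg, and also upstream of DFR, which was listed at 0. FLS1 had neither the G-box nor its core, so none of the motifs searched was found in all 5.

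**Figure D1:**
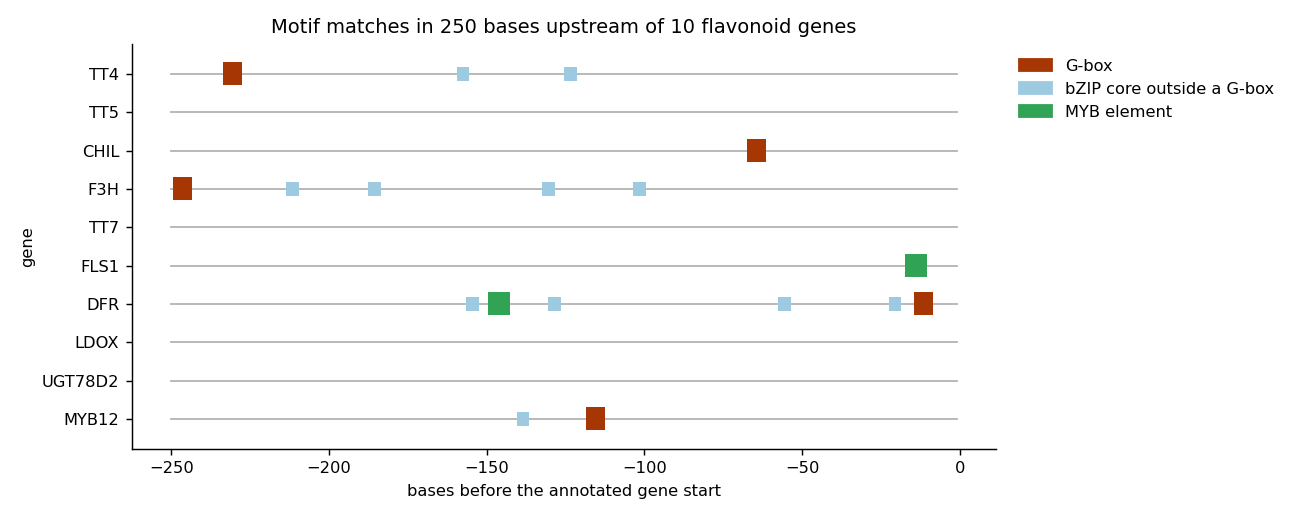
Motif matches in the 250 bases upstream of each of the 10 genes, by distance in bases before the annotated gene start. Brown-red blocks are G-boxes, light blue blocks are bZIP cores outside a G-box and green blocks are the one MYB element that matched. G-boxes lie in 5 genes, from position -249 (the first base in F3H) to position -9 (the last base in DFR).

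Levels are given in FPKM as deposited, a count of fragments corrected for the length of the transcript and the size of the library. From the spacing of low values, the control held about 9790000 fragments, low Mg at 4 d held 11640000 fragments, high Mg on either day held 10860000 fragments and low Mg at 7 d held 6680000 fragments. Fragments per gene derived from this are approximate, since the authors' own transcript lengths were not used here. The 95% intervals given below are exact Poisson or binomial intervals on those fragments and cover counting error in the single libraries only. A 102-nt locus, AT2G01021, held between 15.6% and 82.3% of the summed FPKM of a library, so a scaling by that sum (TPM) moves all genes, and results it turns are named beside it.

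TT4, the entry enzyme of the pathway (AT5G13930, chromosome 5, 4488476 to 4490264), stood at 0.775 FPKM in the control, 2.41 in low Mg and 7.80 in high Mg at 4 d, then at 0 in low Mg and 0.238 in high Mg at 7 d. These values stand for about 12.9, 47.8, 144, 0 and 4.41 fragments. High Mg at 4 d was thus well above all other libraries, and both 7-d libraries were near the limit of detection, where 3 fragments make 0.264 FPKM (low Mg) and 0.162 FPKM (high Mg). The ratio of high Mg to the control at 4 d was 10.1 (interval 5.66 to 19.2), and that of low Mg to the control was 3.11 (1.66 to 6.25).

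TT5, which closes the ring of the chalcone (AT3G55120, chromosome 3), moved little by comparison. It stood at 1.24 FPKM in the control, 2.24 in low Mg and 2.84 in high Mg at 4 d, and at 2.77 and 2.64 FPKM in low and high Mg at 7 d. The control was lowest, from about 13.5 fragments, and the intervals of all 5 libraries overlapped, although that of the ratio of high Mg to the control at 4 d (1.21 to 4.87) lay above 1. CHIL, a relative without isomerase activity that raises the yield of the chalcone synthase step (AT5G05270, chromosome 5), did not follow TT5. It was at 5.81, 10.8 and 13.2 FPKM in control, low and high Mg at 4 d and at 1.92 and 2.46 FPKM in low and high Mg at 7 d. Each 4-d library was above both 7-d libraries.

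F3H (AT3G51240, chromosome 3) kept a higher level at 7 d than TT4 did. Its levels were 1.66 FPKM in the control, 3.83 in low Mg and 12.7 in high Mg at 4 d, and 5.26 and 9.31 FPKM in low and high Mg at 7 d. High Mg was above low Mg on both days, and the ratio of high Mg to the control at 4 d was 7.69 (5.11 to 12.5). TT7, which hydroxylates the side ring and so decides between kaempferol and quercetin (AT5G07990, chromosome 5), lay between 0.249 and 0.329 FPKM in all 5 libraries, from about 3.97 to 6.89 fragments. At that depth no difference between the libraries was detectable.

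FLS1, the flavonol synthase step (AT5G08640, chromosome 5, 2803833 to 2805606), was at 2.09 FPKM in the control, 6.67 in low Mg and 10.8 in high Mg at 4 d, and at 3.67 and 4.68 FPKM at 7 d. The 4-d values step up from control to low Mg to high Mg with intervals that do not overlap, whereas those of the 7-d libraries do overlap. The ratio of low Mg to the control was 3.20 (2.17 to 4.86) and that of high Mg to the control 5.16 (3.55 to 7.72).

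The anthocyanin branch was almost without signal. DFR (AT5G42800, chromosome 5) was listed at 0 in all 5 libraries, where the limit of 3 fragments used here for a count of 0 lies between 0.170 FPKM (low Mg, 4 d) and 0.295 FPKM (low Mg, 7 d). LDOX (AT4G22880, chromosome 4) was listed at 0 in 4 libraries and at 0.0734 FPKM in high Mg at 7 d, about 1 fragment. No comparison of Mg levels can be drawn from either gene.

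UGT78D2, which attaches glucose to flavonols and anthocyanidins (AT5G17050, chromosome 5), was higher at 7 d than at 4 d. Its levels were 2.83, 4.49 and 4.58 FPKM in control, low and high Mg at 4 d, and 11.3 and 18.2 FPKM in low and high Mg at 7 d. Both 7-d libraries were above every 4-d library. MYB12 (AT2G47460, chromosome 2) stood at 3.87 FPKM in the control, 4.65 in low Mg and 9.18 in high Mg at 4 d, and at 0.402 and 2.27 FPKM in low and high Mg at 7 d. The lowest value, of low Mg at 7 d, rests on about 4.26 fragments.

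**Figure D2:**
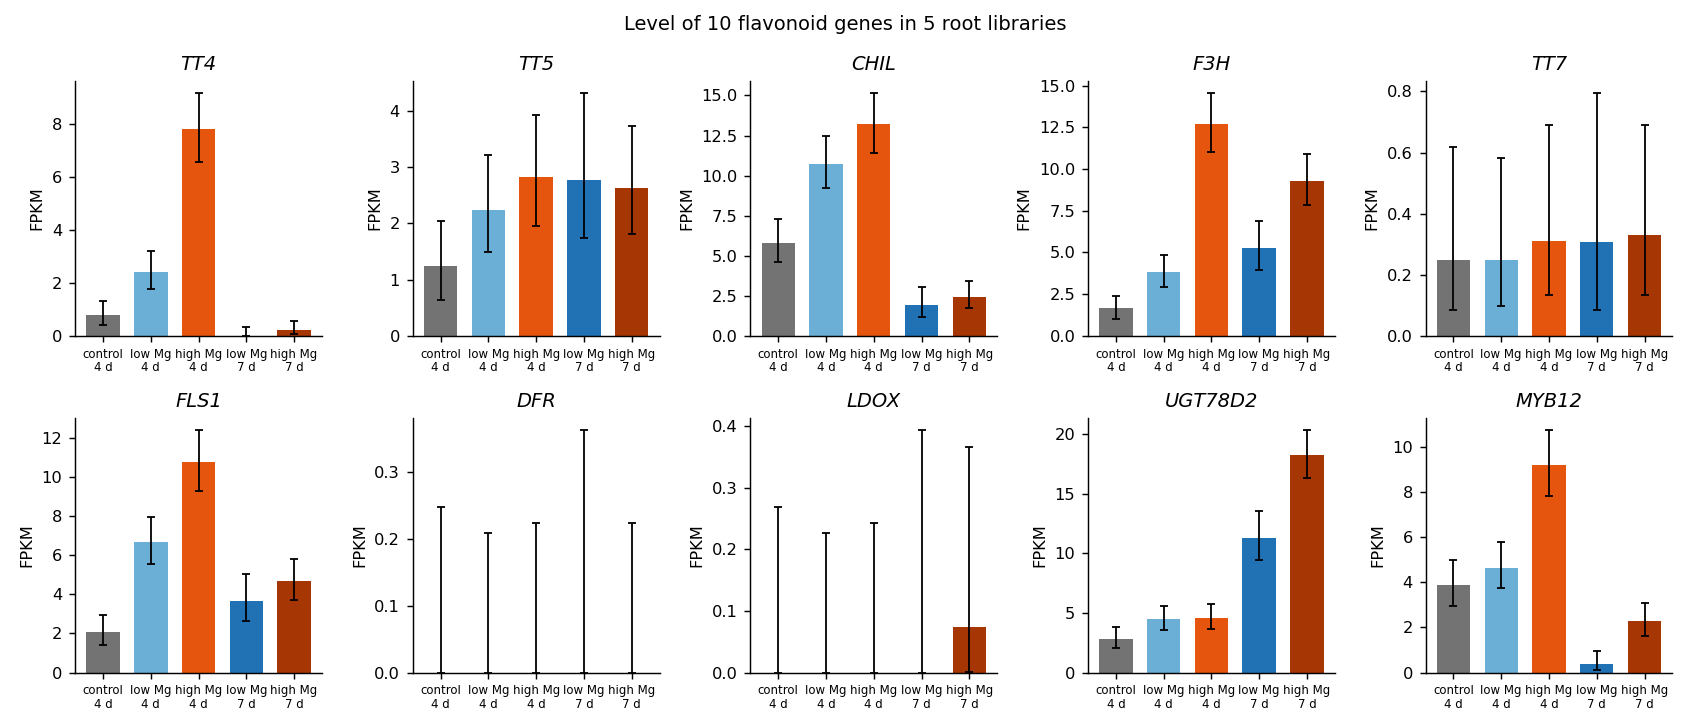
Level in FPKM (bars) of each of the 10 genes in the 5 libraries, with 95% Poisson intervals of the estimated fragments (lines, counting error only; for a value of 0 the upper bound of the Poisson interval, which lies above the limit of 3 fragments). TT4 reaches 7.80 FPKM in high Mg at 4 d and is at or near 0 at 7 d, while UGT78D2 is highest at 7 d.

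In high Mg against the control at 4 d, the genes from chalcone synthesis to flavonol synthesis and their activator were higher. Log2 ratios of (FPKM + 1) were 2.37 for F3H, 2.31 for TT4, 1.93 for FLS1 and 1.06 for both CHIL and MYB12. TT5 (0.78) and UGT78D2 (0.54) were higher but under a log2 ratio of 1 on this scale, TT7 differed by 0.07, and DFR and LDOX were listed at 0. The pseudocount lowers the ratio of low genes, and the plain ratio of TT5 was 2.29 (1.21 to 4.87). Counting a log2 ratio of 1 as 2-fold, 5 of the 5 members that reached 5 FPKM in either library were 2-fold higher and 0 lower, against 2.52% higher and 3.83% lower of 15962 nuclear genes. Of these 5, only CHIL had 5 FPKM in the control too. The others entered the count through high Mg alone, so the count says where the genes lie and is not support for a change. With no filter on low values, 5 of all 10 members were 2-fold higher, against 1.56% of 33280 genes, and 0 lower, against 2.42%. The 5 ratios stayed at 1 or more under the TPM scaling, from 1.46 (MYB12) to 2.18 (F3H). That scaling moved the median of all genes to 1.04, and F3H alone of the 5 then exceeded that median by 2-fold. The pseudocount of 1 was kept. TPM values at 4 d are smaller than FPKM, so the pseudocount shrank the ratios of low genes more. Plain ratios of all genes shift by the same factor in TPM. As deposited, those of the 5 ran from 2.27 (CHIL) to 10.1 (TT4).

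Low Mg against the same control library showed smaller differences. FLS1 was 2-fold higher (log2 ratio 1.31) and CHIL was higher by 0.79. These were the 2 members that passed the filter, and 1 of 2 was called, against 2.16% higher and 1.67% lower of 15873 genes. FLS1 passed through low Mg alone. TT4 (0.94), F3H (0.86), TT5 (0.54) and UGT78D2 (0.52) were below 5 FPKM in both libraries, and MYB12 stood at 0.21. With no filter 1 of all 10 was 2-fold higher, against 1.35%. The intervals of the plain ratios of TT4 (1.66 to 6.25), F3H (1.45 to 3.91), UGT78D2 (1.09 to 2.33) and CHIL (1.40 to 2.43) lay above 1, and those of TT5 (0.945 to 3.93) and MYB12 (0.857 to 1.71) included 1. Under the TPM scaling FLS1 was at 0.87, short of 2-fold. The scaling itself raises plain ratios in this comparison, and it moved the median of all genes to 0.36. FLS1 fell because TPM values here are smaller than FPKM, so the kept pseudocount of 1 weighed more.

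At 4 d, the control was thus lowest and high Mg highest in 7 members, which are TT4, TT5, CHIL, F3H, FLS1, UGT78D2 and MYB12. The same order was found in 19.8% of 20035 nuclear genes with 1 FPKM or more in a 4-d library. Only in TT4, F3H and FLS1 did the counting intervals of both steps exclude a ratio of 1. The interval for low to high Mg included 1 in TT5 (0.468 to 1.35), CHIL (0.661 to 1.005) and UGT78D2. That for low Mg to the control included 1 in TT5 and MYB12. Low and high Mg are set beside the same control library, so a control that stands apart and a response shared by both Mg levels cannot be told apart. The step from low to high Mg does without that library. There TT4 (log2 ratio of low to high Mg -1.37) and F3H (-1.51) were 2-fold lower in low Mg, while MYB12 (-0.85), FLS1 (-0.62) and CHIL (-0.27) were lower by less. Thus 2 of 5 members that passed the filter were 2-fold lower and 0 higher, against 1.8% lower and 3.69% higher of 15837 genes. TT4 and F3H passed through high Mg alone, where they are high, so this count too is a description only. With no filter 2 of all 10 were lower, against 1.1%. UGT78D2 stood at 4.49 and 4.58 FPKM, a ratio of 0.980 (0.714 to 1.34). The 9 shoot photosynthesis genes summed to 13.2, 13.8 and 18.8 FPKM in control, low and high Mg at 4 d. That is the order of the 7 members. In high Mg against the control, intervals lay above 1 for PSAD1 (1.42 to 6.26) and PSBO1 (1.09 to 2.33). So they did for LHCB3 (1.45 to 57.2) and RBCS1A (1.31 to 12.3). Those of LHCA1 (0.573 to 1.15) and RCA (0.981 to 1.99) included 1. The part of shoot tissue in the 4-d flavonoid values was not tested.

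At 7 d, low Mg was below high Mg in F3H and UGT78D2, the 2 members that passed the filter. F3H was lower in low Mg by a log2 ratio of -0.72 and a plain ratio of 0.565 (0.406 to 0.779), and UGT78D2 by -0.64 and 0.621 (0.501 to 0.769). Neither reached 2-fold, so 0 of 2 were called, against 3.21% lower and 2.54% higher of 15684 genes. MYB12, at 0.402 against 2.27 FPKM, was below the filter, with a plain ratio of 0.177 (0.0432 to 0.462). With no filter it was the 1 member of 10 that was 2-fold lower, against 2.14% of all genes. FLS1 (0.783, interval 0.529 to 1.17), CHIL (0.783, 0.424 to 1.42) and TT5 (1.05, 0.584 to 1.91) had intervals that include 1. Beside this, the summed level of 9 shoot photosynthesis genes was 28.8 FPKM in high Mg at 7 d, against 11.1 in low Mg at 7 d and 13.2 to 18.8 at 4 d. Most of that sum came from PSBO1, at 17.7 FPKM in high Mg at 7 d, while RBCS1B was at 0 in all 5 libraries. PSBO1 (log2 -1.54) and RCA (-1.02) were 2-fold lower in low Mg than in high Mg at 7 d, and only these 2 passed the filter. Below it, LHCA1 (1.67 against 1.86 FPKM), LHCB3 (0.675 against 1.15), RBCS1A (0.463 against 1.41) and PSAD1 (0.199 against 0.607) were lower too. LHCB1.1 was higher (0.388 against 0.158). From 4 d to 7 d in high Mg, LHCA1 (4.73 to 1.86) and PSAD1 (2.83 to 0.607) fell, while PSBO1 (4.93 to 17.7) and RCA (3.72 to 5.73) rose. The part of shoot tissue in the flavonoid values was not tested.

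Between the days the members parted. In high Mg, TT4 was lower at 7 d than at 4 d by a log2 ratio of -2.83, CHIL by -2.04, MYB12 by -1.64 and FLS1 by -1.05, while UGT78D2 was higher by 1.79. F3H differed by -0.41. Of 6 members that passed the filter, 4 were 2-fold lower and 1 higher, against 11.3% lower and 4.65% higher of 16081 genes. The 4 lower members passed through the 4-d library alone and UGT78D2 through the 7-d library alone, so the filter follows the difference and the count describes where the genes lie. With no filter the counts were the same, against 6.16% lower and 2.91% higher. Under the TPM scaling FLS1 turned to 0.22 and F3H to 0.88, and MYB12 (-0.40) and CHIL (-0.74) fell short of 2-fold, whereas TT4 stayed at -1.63. Relative to the median of all genes, -0.15 as deposited and 1.18 in TPM, TT4, CHIL, MYB12 and FLS1 were lower and UGT78D2 higher on both scales.

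In low Mg, CHIL was likewise lower at 7 d (-2.01, or -0.19 under the TPM scaling) and UGT78D2 higher (1.17). F3H differed by 0.37 and FLS1 by -0.72, which the TPM scaling turned to 0.91. The median of all genes was -0.16 as deposited and 1.76 in TPM. CHIL and FLS1 lay below it and UGT78D2 (2.61 in TPM) above it on both scales, while F3H (1.74 in TPM) was near it in TPM. Here 1 of 4 members that passed the filter was 2-fold lower and 1 higher, against 12.9% lower and 4.03% higher of 16182 genes. Of these 4, 0 passed in both libraries. Below the filter, MYB12 was at 0.402 against 4.65 FPKM, a plain ratio of 0.0865 (0.0216 to 0.215), and TT4 was listed at 0 against 2.41 FPKM. With these, 3 of all 10 were 2-fold lower and 1 higher, against 7.37% and 2.56% of genes with no filter. The 4-d and 7-d samples carry different processing notes, so the day and any difference in processing cannot be told apart. The level of F3H relative to TT4 changed with the day: F3H stood at 12.7 and TT4 at 7.80 FPKM in high Mg at 4 d, and at 9.31 and 0.238 FPKM in high Mg at 7 d.

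**Figure D3:**
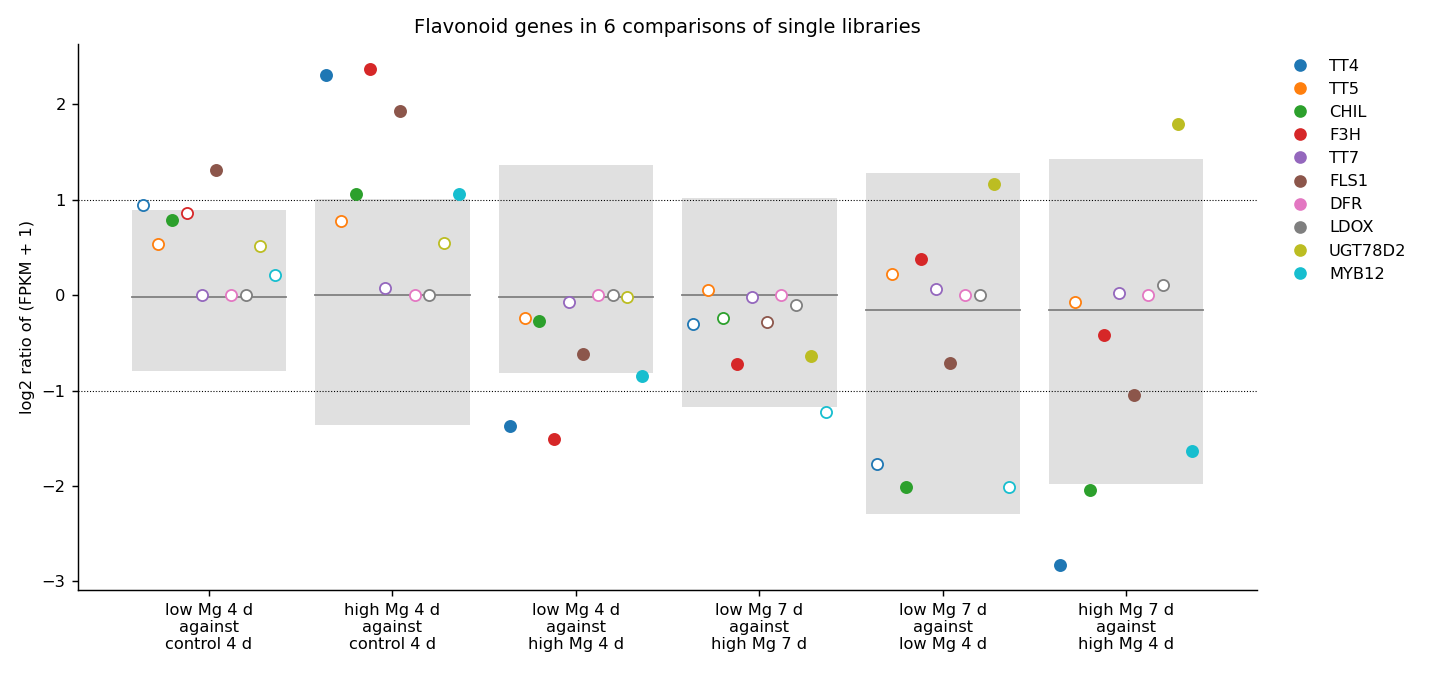
Log2 ratio of (FPKM + 1) of each gene in 6 comparisons of single libraries, as deposited. Filled points reached 5 FPKM in either library, open points did not. Grey bands hold the middle 95% of all nuclear genes that passed the same filter, grey lines are their median and dotted lines mark 2-fold. All 5 filled points in high Mg against the control lie above the band, but only CHIL reached 5 FPKM in the control too. The others are filled through high Mg alone. FLS1 and F3H, at -1.05 and -0.41 in high Mg by day, turn positive under the TPM scaling.

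Upstream of the pathway, the general phenylpropanoid genes supply coumaroyl-CoA to flavonoids, lignin and coumarins alike. Of 10 measured, 8 passed the filter in high Mg against the control, and 0 were 2-fold higher or lower (median 0.08). Of all genes, 2.52% were higher and 3.83% lower there, so 0 of 8 is near that share. PAL1 and PAL2, which encode the main phenylalanine ammonia-lyases, stood at 168 and 83.8 FPKM in high Mg and 157 and 72.8 FPKM in the control at 4 d. C4H, the hydroxylase of the second step, was at 341 against 501 FPKM. All 3 stood far above TT4 on the same per-length scale. The one member past the filter and 2-fold apart in any comparison was PAL3. It stood at 6.77 FPKM in high Mg at 7 d against 0.705 at 4 d (log2 2.19). In that comparison 4.65% of all genes were 2-fold higher. The ligase gene 4CL3, tied to flavonoid synthesis, stayed between 0 and 0.628 FPKM.

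Of 5 other flavonol synthase copies, 0 of the 3 that passed the filter were 2-fold apart in any of the 6 comparisons. Of all genes, 2.16% to 4.65% were 2-fold higher in those comparisons and 1.67% to 12.9% lower. FLS5 was at 753, 692 and 688 FPKM in control, low and high Mg at 4 d and at 357 and 486 FPKM in low and high Mg at 7 d, and FLS6 was at 0 throughout. The FLS copies resemble FLS1 in sequence, and how fragments that match several genes were assigned is not given in the labels, so values of such copies are uncertain. Among 13 genes that decorate flavonols and anthocyanins, 2 were at 0 and 7 below 1 FPKM in all 5 libraries. Only 3 or 4 passed the filter in each comparison, and 0 of those were 2-fold apart. AT1G06000, annotated as a glycosyltransferase, came closest at 7.70, 11.6 and 15.2 FPKM in control, low and high Mg at 4 d and 9.17 and 17.6 FPKM at 7 d. UGT78D3, the neighbour of UGT78D2, was at 0 in all 5 libraries. The anthocyanin genes UGT79B1 and GSTF12 reached at most 0.683 and 0.135 FPKM.

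Most other regulators were level or near 0 at 4 d. MYB11 and MYB111, which act beside MYB12 on flavonol genes, reached at most 0.163 and 0.135 FPKM. The anthocyanin activators PAP1, PAP2, MYB113 and MYB114 were at 0 in all 5 libraries, and their partner TT8 reached 0.0471 FPKM. Of 22 regulators, 13 passed the filter in high Mg against the control and 0 were 2-fold apart (median 0.08). Of all genes, 2.52% were higher and 3.83% lower there. Nearest to 2-fold was HYH, a bZIP factor that acts with HY5, at 11.02 against 5.02 FPKM (a log2 ratio of 0.998, just under the threshold). HY5 itself stood at 67.0 against 46.8 FPKM.

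By day, 2 of the 14 regulators that passed in high Mg were 2-fold higher and 1 lower, against 4.65% and 11.3% of all genes. In low Mg, 1 of 15 was higher and 1 lower, against 4.03% and 12.9%. HYH was at 56.0 and 71.3 FPKM in low and high Mg at 7 d, against 9.88 and 11.02 FPKM at 4 d (log2 2.39 and 2.59). MYBL2, a repressor of flavonoid synthesis, was at 0.321 and 0.294 FPKM at 7 d, against 8.87 and 5.10 FPKM at 4 d (-2.90 and -2.24). Both kept their direction under the TPM scaling, with MYBL2 at -1.13 and -1.14. Of the kelch-repeat F-box genes that mark phenylpropanoid enzymes for breakdown, AT2G44130 was higher at 7 d in high Mg, at 7.66 against 2.51 FPKM.

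Most members of the competing branches stayed within 2-fold as deposited, as most genes did, though not all were level. Over the 6 comparisons, 2.16% to 4.65% of all genes were 2-fold higher and 1.67% to 12.9% lower. The counts of lists below stand beside those shares. In high Mg against the control at 4 d, the coumarin gene F6'H1 stood at 171 against 322 FPKM (log2 -0.91). The lignin gene CAD5 stood at 69.0 against 123 FPKM (-0.83). The largest rises short of 2-fold there were PDR9 (0.65) and FAH1 (0.61). TPM, which moved the median of all genes to 1.04 there, was not applied to these genes. Of 9 lignin genes, all of which passed the filter in all 6 comparisons, only CCR2, a cinnamoyl-CoA reductase, was 2-fold apart in any. It was at 14.0, 20.1 and 6.19 FPKM in control, low and high Mg at 4 d, and its log2 ratio of high Mg to the control of -1.06 turned to 0.08 under the TPM scaling. In the coumarin branch, 1 of 5 was 2-fold higher in high Mg against the control, beside 2.52% of all genes. That gene, CYP82C4, which makes the iron-chelating coumarin sideretin, was at 1.66, 12.1 and 24.4 FPKM in control, low and high Mg at 4 d, and so was 2-fold higher in low Mg too (log2 2.30). At 7 d it stood at 23.5 FPKM in low and 7.06 FPKM in high Mg (log2 1.61 for low over high). AT3G12900, annotated as a 2-oxoglutarate and iron-dependent oxygenase, stood at 31.8 FPKM in low Mg at 7 d and at 2.73 to 4.67 FPKM in the other 4 libraries. The seed coat list had 0 of 7 members past the filter in high Mg against the control, with TT12 and TT16 at 0 in all 5 libraries. Its member LAC15, a laccase-like oxidase, was 2-fold lower in low Mg at 7 d than at 4 d, at 0.405 against 5.42 FPKM (log2 -2.19). The TPM scaling left LAC15 at -0.62, short of 2-fold, beside a median of all genes of 1.76. Meristem genes summed to 163 to 168 FPKM at 4 d and to 144 and 130 FPKM in low and high Mg at 7 d, with 0 of 8 members 2-fold apart in any comparison. Reference genes had 0 of 7 members 2-fold apart at 4 d, and by day AT5G60390 and YLS8 were 2-fold lower at 7 d in high Mg, which the TPM scaling turned to 0.03 and 0.29, and AT5G60390 was 2-fold lower in low Mg (-1.04), which it turned to 1.15.

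**Figure D4:**
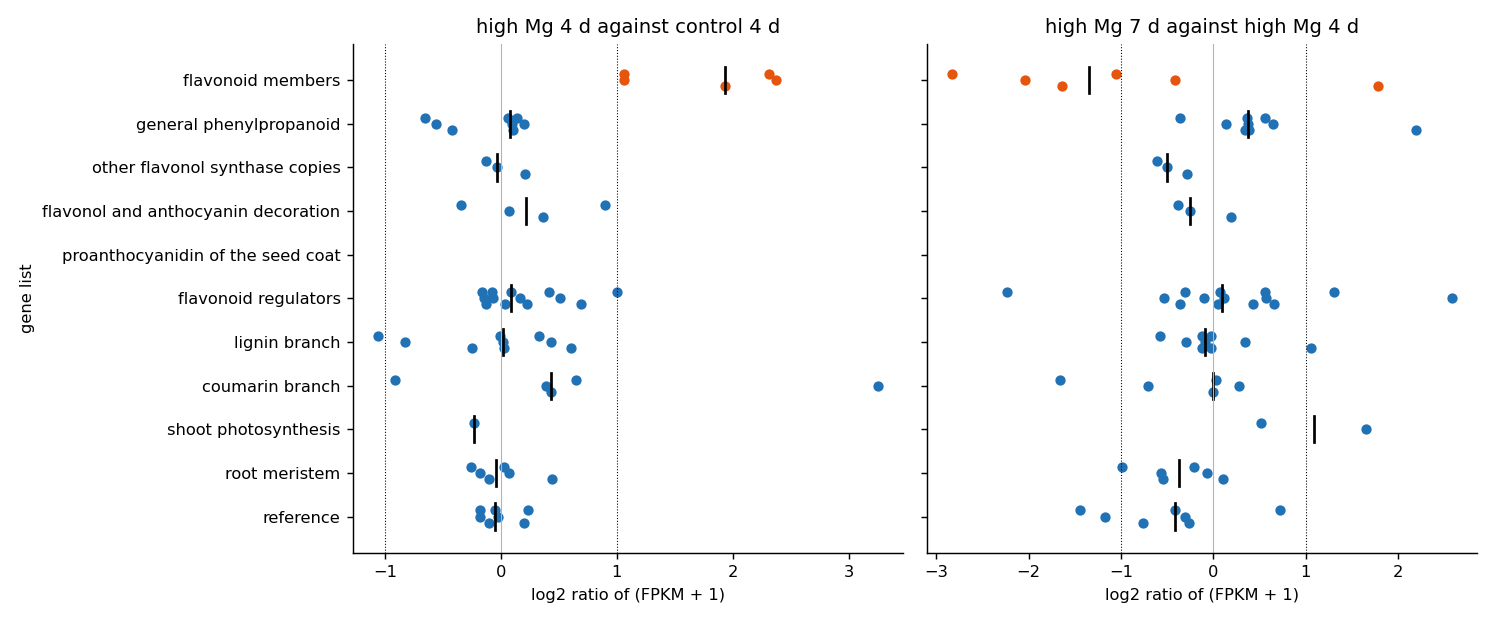
Log2 ratio of (FPKM + 1) of the genes of each list that passed the filter of 5 FPKM, for high Mg against the control at 4 d (left) and high Mg at 7 d against 4 d (right), as deposited. Orange points are the flavonoid genes, blue points the other lists, black bars the medians and dotted lines 2-fold. The 5 flavonoid genes on the left lie at 1.06 or more, but 4 of them passed the filter through high Mg alone, and the 5 members below it (0 to 0.78) are not drawn. Among the genes whose TPM ratio is given in the text, that scaling turns FLS1, F3H, AT5G60390 and YLS8 positive on the right. It turns CCR2 positive on the left.

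The profile of TT4 over the 5 libraries was set against 16148 coding genes by the root mean square distance of centred log2(FPKM + 1). The 8 nearest were ADH1 (alcohol dehydrogenase), GATA23, AT1G68500, ACP5, AT1G05835, PDC1 (AT4G33070, pyruvate decarboxylase), CYP89A5 and AT4G15160, at distances from 0.304 to 0.419. ADH1, for example, stood at 74.0, 149 and 227 FPKM in control, low and high Mg at 4 d and at 37.7 and 57.1 FPKM at 7 d. Of the members, CHIL (0.43) came at rank 12, MYB12 (0.50) at rank 22 and FLS1 (0.73) at rank 310. F3H, at 1.12, came at rank 8760 and UGT78D2, at 1.77, at rank 15861. Within the pathway, TT4, CHIL and MYB12 thus lay near each other, with CHIL and MYB12 at 0.38, F3H was nearest to FLS1 (0.53), and UGT78D2 lay far from TT4. The measure rests on 5 single libraries and describes them alone.

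**Figure D5:**
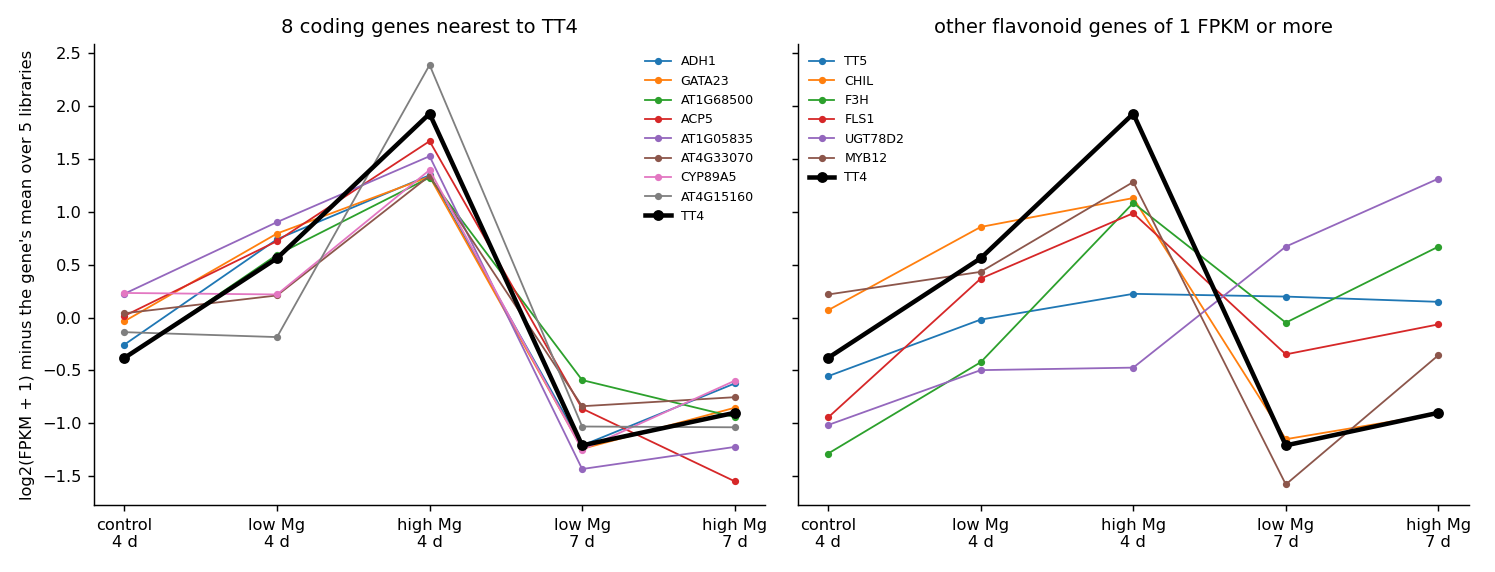
Centred log2(FPKM + 1), the value minus the mean of the gene over the 5 libraries, for TT4 (black) with its 8 nearest coding genes (left) and with the other flavonoid genes of 1 FPKM or more (right). All genes on the left peak in high Mg at 4 d. On the right CHIL and MYB12 lie near TT4, and UGT78D2 is higher at 7 d.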

How the data were processed

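Roots were sequenced as 5 libraries, grouped by sample title. The deposited values are FPKM, made by the authors for 33559 TAIR10 loci. No label names the unit, which was read from Cufflinks in the tool list and from the spacing of low values. Per the submitters' processing notes, the 4-d samples used TopHat2 2.0.8 and Cufflinks 2.1.1. For the 7-d samples, the tools used are not stated there.

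Ratios were log2((a + 1)/(b + 1)) on deposited FPKM, for nuclear genes with 5 FPKM or more in one of the libraries compared, and 2-fold meant a log2 ratio of at least 1 in size. Python 3.11.15 with numpy, pandas and scipy was used. Members and lists were chosen with earlier results of these data known. Named genes are all members, up to 3 highest and 3 lowest 2-fold members of each list, and the 8 coding genes nearest to TT4. Other list members are given as examples chosen after their values were seen.

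Positions and names are from TAIR10.1 (97.8% of loci matched). Of 106 list entries, 12 had symbols that the annotation does not pair with the locus, and these carry the annotated name. The worth of 1 fragment was read from the most frequent low product of FPKM and exon length among 8857 single-transcript coding genes of 1000 to 2000 nt. No sequences of proteins were used here.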

Additional observations from a re-analysis of the deposited data

Results flagged for a closer look

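F3H differed between the Mg levels in its direction by day. It was higher at 7 d than at 4 d in low Mg, by a log2 ratio of 0.37, and lower in high Mg, by -0.41, so that the ratios lay 0.79 apart on the log2 scale. The plain ratio in low Mg was 1.37 with a counting interval of 0.942 to 2.00, which includes 1, and that in high Mg was 0.731 (0.589 to 0.905). The difference was not tested, since each group is 1 library. Scaling by the nuclear sum (TPM) made both ratios positive, at 1.74 and 0.88, as did equal sums over loci of 500 nt or more, at 0.75 and 0.05. The medians of all genes then stood at 1.76 and 1.18 in TPM, and at 0.27 and 0.32 with equal sums. Against these medians F3H stayed lower in high Mg. In low Mg it was near the median in TPM and above it with equal sums.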

How the results depend on the processing

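In high Mg against the control at 4 d, the count of 5 members 2-fold apart was kept with a pseudocount of 0.1, no filter, TPM, a median ratio of 0, equal upper quartiles, a 1.5-fold limit and equal sums over loci of 500 nt or more (this last chosen after seeing the data), and was 3 with a pseudocount of 5. That pseudocount also gave 0 in low Mg against the control (1 as reported), 1 in low against high Mg at 4 d (2 as reported), 1 in low Mg by day (2 as reported) and 3 in high Mg by day (5 as reported). The count in high Mg by day was 4 with a median ratio of 0, equal upper quartiles and equal sums, where FLS1 stood at -0.90, -0.90 and -0.61. TPM gave 0 in low Mg against the control, 4 in low against high Mg at 4 d, and 2 each in low Mg and high Mg by day, the count in low Mg by day then being 2 higher and 0 lower, and turned FLS1 in high Mg by day from -1.05 to 0.22. The pseudocount of 1 was kept under TPM and weighed more on low genes at 4 d. It took FLS1 below 2-fold in low Mg against the control. No filter gave 1 in low against high Mg at 7 d (0 as reported) and 4 in low Mg by day. A 1.5-fold limit gave 2 in low Mg against the control, 4 in low against high Mg at 4 d, 2 in the same pair on day 7 and 3 in low Mg by day. No member reached 20 FPKM, so that filter left none. With TPM the median over all genes went to 0.36 and 1.04 (low and high Mg against the control), -0.69 and -0.07 (low over high Mg, 4 d then 7 d), and 1.76 and 1.18 (low and high Mg by day). Of the log2 ratios of members and their medians, 154 of the values under other settings stayed within counting error or 0.05, and 55 moved further without a called gene changing sign. Depth limits TT7, DFR and LDOX in all libraries, TT4 in both 7-d libraries, and MYB12 in low Mg at 7 d. No paired analysis was possible because each group is 1 library.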
